A study of Mus musculus with 3 samples.

Results

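The cadherin and protocadherin genes of enteric neurons were described in *Ednrb*-/- mice. Members were all genes of the deposited values whose whole symbol was Cdh followed by a number, or Pcdh followed by numbers and letters, which gave 91 of 33353 genes, and 6 other cadherin-like symbols were left out by that rule. ScRNA-seq was performed on 1 library from each of 3 Ednrb-KO mice, labelled C57BL/6, at P14. The mice carried a tdTomato reporter switched on by Wnt1-Cre, which marks neural crest-derived cells, and tdTomato-positive cells were sorted from the longitudinal muscle and myenteric plexus of the small intestine. All 3 mice lacked the endothelin receptor type B, a model of Hirschsprung disease, so there was 1 condition and no wild-type cell was analysed here. The deposited cells were the 2060 that the study kept as neurons.

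Cadherins are calcium-dependent adhesion proteins of the cell surface. Classic cadherins bind their like on the neighbouring cell and are tied through catenins to the actin cytoskeleton, whereas the nonclustered protocadherins adhere more weakly and also signal through their cytoplasmic tails. The clustered protocadherins are chosen in differing combinations by single neurons and are known for the recognition of self by the neurites of 1 cell. In the enteric nervous system, cell adhesion by N-cadherin is known to take part in the migration of neural crest cells into the gut and their grouping into ganglia.

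Mouse 1 stood apart from the others. It gave 354 cells with a median of 3734.5 UMIs, where a UMI is 1 captured RNA molecule, while mice 2 and 3 gave 1050 and 656 cells with medians of 9599.5 and 9578.5 UMIs. Cell barcodes that occurred in more than 1 library numbered 2, and no doublets were removed. A set of 10 neuronal markers was high in all mice, at 73.8, 67.9 and 65.4 summed UMIs per 10000, but *Sox10*, a transcription factor of enteric glia and progenitors, had at least 1 UMI in 52.8% of all cells. The targeted gene *Ednrb* was detected in 42.7%, 68.9% and 58.8% of the cells of mice 1, 2 and 3, and since UMIs do not show which exons were read, these values do not check the genotype. Smooth muscle markers summed to 100 or more UMIs per 10000 in 121 cells (75, 29 and 17 of mice 1, 2 and 3), which are called smooth muscle-high here and are set beside shares of cells. They still held neuronal markers, at 33.5, 54.5 and 62.0 UMIs per 10000, and so are not cells without neuronal RNA.

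Of the 91 members, 86 had at least 1 UMI and 18 reached a mean level of 0.1 UMIs per 10000. Their summed level was 16.5, 13.1 and 14.9 UMIs per 10000 in mice 1, 2 and 3, a mean of 14.8 ± 1.70 (SD, n = 3 mice). A few genes held most of it, since the 3 members with the most UMIs had 44.0% of the 25658 UMIs of the family and the 15 highest had 79.1%. At 3000 UMIs per cell, to which all deeper cells were thinned while the 78, 55 and 45 shallower cells of mice 1, 2 and 3 were left out, a cell held UMIs of 3.42 ± 0.0846 members on average, with at most 13. UMIs came from the 3′ ends of transcripts and were not divided by gene length.

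**Figure D1:**
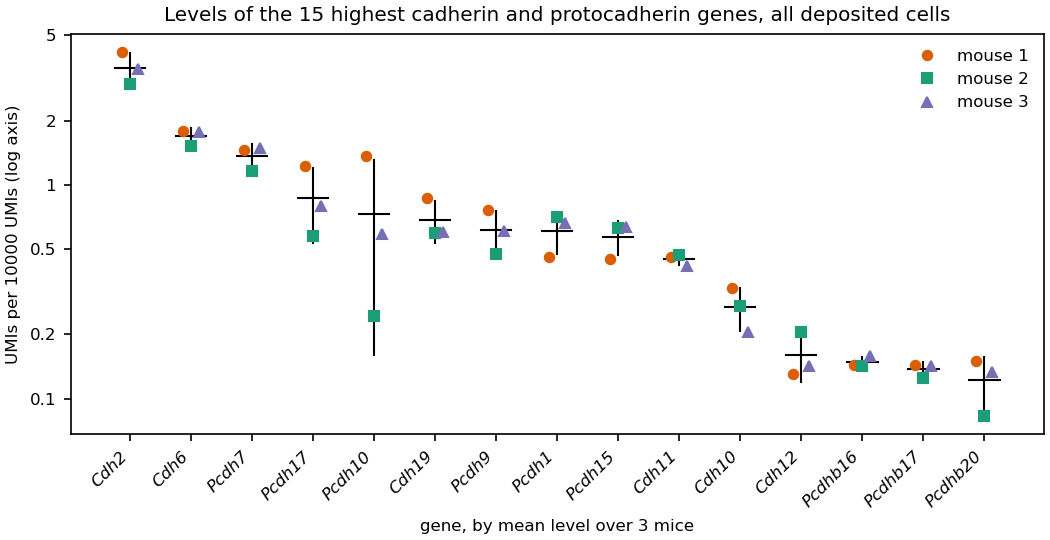
Level of the 15 highest members in all deposited cells of each mouse, in UMIs per 10000 UMIs on a log axis. Points are mice, horizontal lines are means and vertical lines are SDs over the 3 mice. *Cdh2* lies above all others in every mouse, and *Pcdh10* has the widest spread, from 0.244 in mouse 2 to 1.36 in mouse 1.

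Positions of genes are those of GENCODE M21 on GRCm38. Among the type I classic cadherins, *Cdh2* on chromosome 18, which encodes N-cadherin, held nearly all UMIs. It reached 4.19, 2.95 and 3.47 UMIs per 10000 in mice 1, 2 and 3, the highest level of any member in each mouse. It was detected in 74.9%, 87.3% and 90.7% of cells, and in 65.2%, 57.1% and 61.5% at 3000 UMIs per cell. In the smooth muscle-high cells, the level of *Cdh2* was below these values in every mouse, at 1.62, 1.51 and 2.08 UMIs per 10000, and at 3000 UMIs per cell it was detected in 29.0%, 37.0% and 50.0% of them. *Cdh3* and *Cdh15* had 13 and 23 UMIs in all, *Cdh4* had 53, and *Cdh1*, the E-cadherin of epithelia, was at 0 of 2060 cells, which allows a share of up to 0.146%.

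The 13 type II classic cadherins all had UMIs and together reached 3.55 ± 0.305 UMIs per 10000. *Cdh6* (chr15:13028701-13173675) led them, at 1.78, 1.52 and 1.77 UMIs per 10000 in mice 1, 2 and 3, with close agreement among the mice. *Cdh19* (chr1:110888326-110977584), known from Schwann cell precursors and glia of neural crest origin, followed at 0.865, 0.594 and 0.605, and *Cdh11* (chr8:102632095-102785642) was at 0.459, 0.469 and 0.416. *Cdh10* and *Cdh12* had means of 0.268 ± 0.0609 and 0.160 ± 0.0403 UMIs per 10000. *Cdh24* (0.0853), *Cdh8* (0.0566), *Cdh20* (0.0566), *Cdh18* (0.0433), *Cdh9* (0.0246), *Cdh7* (0.0194), *Cdh5* (0.0120) and *Cdh22* (0.0019) stayed under 0.1. *Cdh7* had 41 UMIs in 32 cells, of which 1, 18 and 22 UMIs came from mice 1, 2 and 3. Of the other cadherins, *Cdh13*, the cadherin held to the membrane by a lipid anchor, had 122 UMIs and *Cdh23* had 5. *Cdh16*, *Cdh17* and *Cdh26* were at 0, with the same limit as *Cdh1*.

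The delta-1 protocadherins were led by *Pcdh7* (chr5:57717967-58133230), at 1.45, 1.16 and 1.49 UMIs per 10000 in mice 1, 2 and 3. *Pcdh9* (chr14:93013410-93890679) and *Pcdh1* had means of 0.615 ± 0.142 and 0.611 ± 0.134, and *Pcdh11x* of 0.0433. *Pcdh7* was at 1.68, 1.20 and 1.26 UMIs per 10000 in smooth muscle-high cells, so its level over all cells was above theirs in mouse 3 but not in mice 1 and 2. Among the delta-2 protocadherins, *Pcdh17* (chr14:84443563-84539002) reached 1.23, 0.575 and 0.795 UMIs per 10000. *Pcdh10* (chr3:45378398-45435623) was at 1.36, 0.244 and 0.590, a 5.58-fold range over the mice and the widest of the 18 members at or over 0.1. *Pcdh19*, *Pcdh18* and *Pcdh8* had 105, 34 and 3 UMIs. Of the single protocadherins outside both groups, *Pcdh15*, known from the tip links of hair cells, where it pairs with *Cdh23*, was at 0.452, 0.629 and 0.633. *Pcdh20* had 165 UMIs and *Pcdh12* had 2.

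The 56 clustered protocadherins lie in 3 groups next to each other on chromosome 18 and gave 5020 UMIs, 19.6% of the family. Summed, they reached 2.34, 2.71 and 2.89 UMIs per 10000 in mice 1, 2 and 3. The 22 beta genes held 2672 of these UMIs, the 21 gamma genes 1714 and the 13 alpha genes 634. *Pcdhb16*, *Pcdhb14*, *Pcdhb17* and *Pcdhb20* led the beta genes with 271, 250, 242 and 194 UMIs, and *Pcdhb1* was at 0. *Pcdhga12* and *Pcdhgc3* led the gamma genes with 200 and 186, and *Pcdhac2* the alpha genes with 186. All alpha genes end in exons that they share, as do all gamma genes. In GENCODE M21, the last 500 exonic bases were shared in full with another clustered gene for 13 of 13 alpha and 21 of 21 gamma genes, and for 0 of 22 beta genes, where 1 gene, *Pcdhb21*, shared 91.0% of them. Reads from shared 3′ ends do not tell single alpha or gamma genes apart, and how such reads were counted was not checked. The levels of alpha and gamma genes are therefore uncertain. The same holds for their UMIs beside those of the beta genes, and for sums and shares over the clustered genes. At 3000 UMIs per cell, 46.8% of cells had no clustered protocadherin with a UMI, 34.8% had 1 and 18.5% had 2 or more, with a mean of 0.803 ± 0.135 genes per cell (SD, n = 3 mice).

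**Figure D2:**
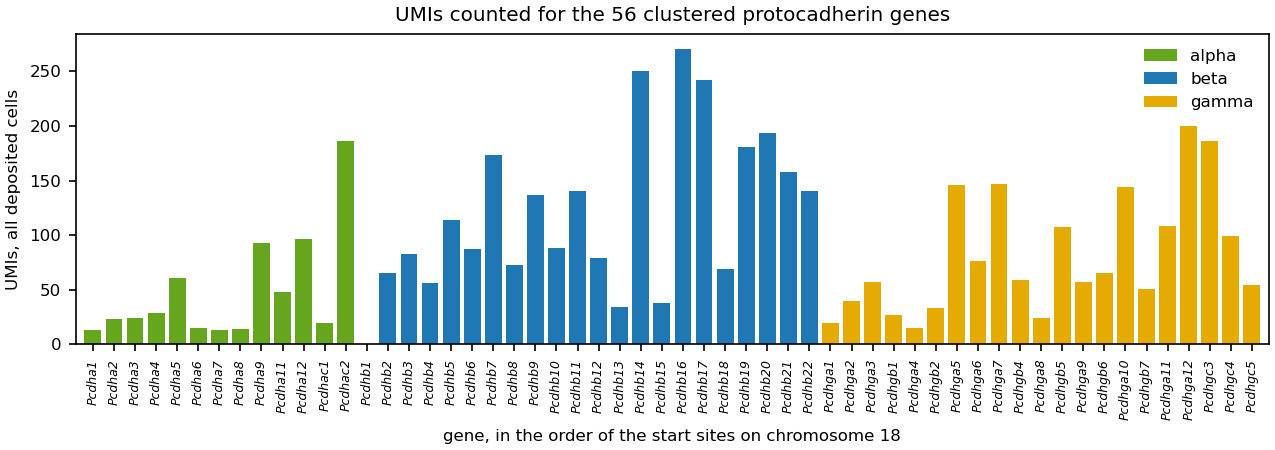
UMIs of each clustered protocadherin over all 2060 deposited cells, with genes in the order of their start sites and bars coloured by group. The beta genes *Pcdhb14*, *Pcdhb16* and *Pcdhb17* have the tallest bars, while alpha and gamma genes share their 3′ ends within each group.

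The members were then compared between cells grouped by marker genes, in 4 comparisons. UMIs were summed for each mouse and class, and log2(UMIs per 10000 + 0.5) was tested with limma, with the mouse as a block and Benjamini-Hochberg adjustment over all genes that passed a mean of 0.1 UMIs per 10000. Members below that mean were described but not tested. A member could pass through 1 class alone, with the other class under 0.1, which held for 4 of the 20 tested members in the *Nmu*, 5 of 21 in the *Nos1*/*Chat*, 3 of 21 in the *Etv1*/*Bnc2* and 2 of 18 in the *Sox10* comparison. Such a member had to differ to be tested, so its difference is given as a description only, and counts over tested members hold such members too. Log2 differences on this scale understate the change of low genes, and fold values below are ratios of the mean levels of the 3 mice. With 3 mice, an exact permutation test of pairs could not reach a p below 0.25.

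Cells with 1 or more UMIs of *Nmu*, the gene of the neuropeptide neuromedin U, had higher levels of *Pcdh10*, *Cdh6* and *Pcdh9* in every mouse than cells without, and these members passed the test where 2 or more UMIs of *Nmu* were required, but not with 1. There were 31, 80 and 89 such cells in mice 1, 2 and 3, or 200 in all. *Pcdh10* was at 8.08, 1.47 and 2.62 UMIs per 10000 in *Nmu*-positive cells of mice 1, 2 and 3, and at 0.551, 0.139 and 0.256 in cells without *Nmu*. Every value of the first group was above every value of the second, and the means differed 12.9-fold. limma called 0 of 20 members tested and 0 of 9580 genes (0%), with an adjusted p of 0.158 for *Pcdh10* (log2 difference 2.23 ± 0.25 SE). At an unadjusted p under 0.05 there were 9 of 20 members, against 710 of all genes tested (7.41%). These were *Pcdh10*, *Cdh8*, *Cdh6*, *Pcdh9*, *Pcdh17* and *Pcdhac2* with higher and *Pcdh15*, *Cdh11* and *Pcdh7* with lower levels, and their log2 differences ran from 2.23 to -0.68. *Cdh8* and *Pcdhac2* had passed the filter through the *Nmu*-positive cells alone. The lowest difference, that of *Pcdh7*, rested on mouse 1, and without that mouse it was -0.26 (adjusted p = 0.439). The mice did not overlap and the means were over 2-fold higher in *Nmu*-positive cells for *Pcdh10*, *Cdh6* and *Pcdh9*, and for *Cdh8*, *Cdh24* and *Pcdhac2*, which that class alone brought through the filter, as for 1.92% of all genes tested, while 1.15% of all genes tested were lower in this way. The median log2 difference of the tested members was 0.06, and that of all genes tested was -0.03. Of the 20 members, 8 were higher and 3 lower in *Nmu*-positive cells in every mouse, against 14.4% and 19.4% of all genes tested.

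The cells with 1 UMI of *Nmu* were then set apart from those with more. In mouse 1, 25 of the 31 positive cells had 2 or more UMIs of *Nmu*, but in mice 2 and 3 only 15 of 80 and 30 of 89 had. *Pcdh10* was at 9.05, 6.69 and 6.92 UMIs per 10000 in cells with 2 or more UMIs of *Nmu*, and in those with 1 UMI it was at 4.38, 0.167 and 0.156. The cells of mice 2 and 3 with 1 UMI of *Nmu* thus had *Pcdh10* within the range of the cells without *Nmu*. Other markers of these neurons, *Nog*, *Cysltr2*, *Calcb*, *Dlx3* and *Cux2*, were also highest together at 2 or more UMIs. They summed to 19.3, 17.4 and 25.2 UMIs per 10000 in cells with 2 or more UMIs of *Nmu*, to 15.8, 1.23 and 1.23 in cells with 1, and to 1.06, 0.733 and 1.15 in cells without.

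When 2 or more UMIs of *Nmu* made a cell positive, limma called 8 of 20 members, against 649 of 9580 genes (6.77%). Of the 8, 6 were higher in the *Nmu* cells, and of these *Cdh8* and *Pcdhac2* passed the filter through the *Nmu* cells alone. *Pcdh10* had a log2 difference of 3.32 ± 0.19 (SE, adjusted p = 3.68e-08). *Cdh6* was at 4.60, 6.21 and 6.28 UMIs per 10000 against 1.48, 1.47 and 1.50 (log2 difference 1.63 ± 0.20, adjusted p = 9.01e-05), and here the 3 mice of the second group were nearly equal. *Pcdh9* was at 2.53, 2.19 and 2.31 against 0.566, 0.452 and 0.528 (1.49 ± 0.18, adjusted p = 5.38e-05). *Pcdh17* was at 2.92, 1.58 and 2.19 against 1.02, 0.556 and 0.734 (1.09 ± 0.18, adjusted p = 0.00128). *Pcdhac2* was at 0.307, 0.365 and 0.364 against 0.0808, 0.0996 and 0.0799 (0.53 ± 0.13, adjusted p = 0.0271), which is a description, since its mean without *Nmu* was under 0.1. *Pcdhac2* is an alpha gene with a shared 3′ end, so its level is also uncertain. In *Pcdh10*, *Cdh6*, *Pcdh9*, *Pcdh17* and *Pcdhac2*, every mouse of the *Nmu* cells was above every mouse of the others.

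*Cdh8*, a type II cadherin known from synapses, was the lowest of the called members in cells without *Nmu*, and with its mean there under 0.1 its call is a description as well. It was at 0.154, 0.973 and 0.607 UMIs per 10000 in cells with 2 or more UMIs of *Nmu*, and at 0.0808, 0.0126 and 0.0109 in cells without (log2 difference 0.94 ± 0.20, adjusted p = 0.00913). These cells held 2, 16 and 20 of the 15, 29 and 28 *Cdh8* UMIs of mice 1, 2 and 3, so in mouse 1 the level rested on 2 UMIs. *Pcdh7* and *Pcdh15* were lower in the *Nmu* cells. *Pcdh7* was at 0.230, 0.487 and 0.304 UMIs per 10000 against 1.60, 1.18 and 1.56 (log2 difference -1.22 ± 0.19, adjusted p = 0.000703), and *Pcdh15* at 0, 0.426 and 0.243 against 0.507, 0.635 and 0.699 (-0.66 ± 0.17, adjusted p = 0.0294). In smooth muscle-high cells, *Pcdh7* reached 1.38 ± 0.258 UMIs per 10000.

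RefSeq promoter sequences were found for 22 of the 91 members, among them 5 of the 6 that were higher in cells with 2 or more UMIs of *Nmu*, of which *Pcdh9* is listed with more than 1 start and is not shown. The 250 bases before the transcription start are shown for *Pcdh10*, *Cdh8*, *Pcdh17* and *Cdh6*, whose summed levels were higher in that class. Whether single cells held them together was not tested, and *Cdh8* had a UMI in only 15 of the 70 cells. Capitals mark any match to CANNTG, the E-box that basic helix-loop-helix factors bind. Windows are on GRCm38.p6 and read 5′ to 3′ on the strand of the gene, at chr3:45378148-45378397 (plus strand) for *Pcdh10*, chr8:99416472-99416721 (minus) for *Cdh8*, chr14:84443313-84443562 (plus) for *Pcdh17* and chr15:13173676-13173925 (minus) for *Cdh6*.
Pcdh10: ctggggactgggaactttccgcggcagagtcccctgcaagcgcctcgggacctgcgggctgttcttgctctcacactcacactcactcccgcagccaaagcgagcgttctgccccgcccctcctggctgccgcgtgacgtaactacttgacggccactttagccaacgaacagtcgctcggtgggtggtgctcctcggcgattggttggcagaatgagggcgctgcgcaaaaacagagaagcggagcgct
Cdh8: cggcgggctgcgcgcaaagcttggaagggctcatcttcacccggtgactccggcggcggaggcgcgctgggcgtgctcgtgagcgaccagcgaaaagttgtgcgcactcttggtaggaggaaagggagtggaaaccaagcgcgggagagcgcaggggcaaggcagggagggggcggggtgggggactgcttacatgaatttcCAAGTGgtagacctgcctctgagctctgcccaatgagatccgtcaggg
Pcdh17: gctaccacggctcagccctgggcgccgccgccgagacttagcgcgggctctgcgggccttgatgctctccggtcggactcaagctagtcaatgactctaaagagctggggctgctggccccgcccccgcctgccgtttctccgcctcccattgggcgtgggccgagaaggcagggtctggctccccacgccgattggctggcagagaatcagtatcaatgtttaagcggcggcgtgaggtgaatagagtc
Cdh6: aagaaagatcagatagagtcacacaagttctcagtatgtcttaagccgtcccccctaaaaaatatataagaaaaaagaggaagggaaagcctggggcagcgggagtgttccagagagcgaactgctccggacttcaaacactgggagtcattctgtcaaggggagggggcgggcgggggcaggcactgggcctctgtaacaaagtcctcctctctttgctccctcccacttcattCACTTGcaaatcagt
The windows of *Cdh8* and *Cdh6* each held 1 CANNTG and those of *Pcdh10* and *Pcdh17* held 0, where 66.2% of 32851 windows of the same length before all starts held at least 1 on either strand. None of the 4 held TAATTA or TATAAA, which were in 4.84% and 12.4% of all windows. *Pcdh10*, *Cdh8* and *Pcdh17* had 22, 20 and 21 CG dinucleotides and *Cdh6* had 6, and the median over all windows was 6.

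**Figure D3:**
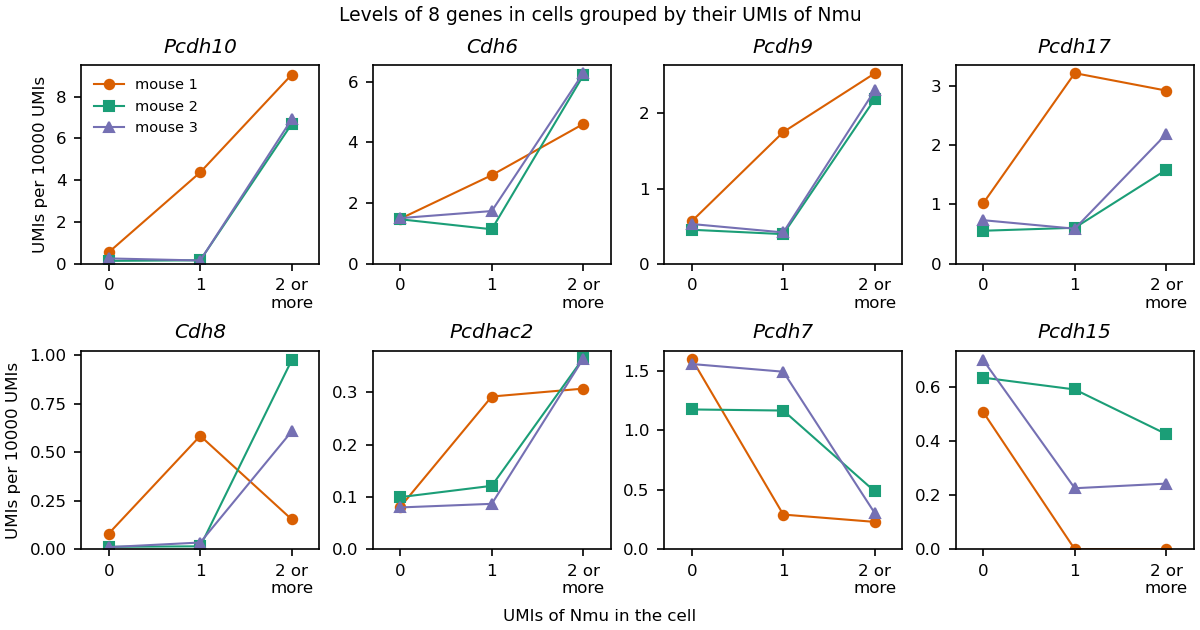
Level of 8 members, in UMIs per 10000 UMIs, in cells with 0, 1 and 2 or more UMIs of *Nmu*, with 1 line per mouse. In mice 2 and 3, *Pcdh10*, *Cdh6*, *Pcdh9*, *Pcdh17*, *Cdh8* and *Pcdhac2* are highest at 2 or more UMIs and at 1 UMI lie near the cells without *Nmu*, and *Pcdh7* is lowest at 2 or more in every mouse.

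The 70 cells with 2 or more UMIs of *Nmu* were 3.40% of all cells and held 456 of the 839 *Pcdh10* UMIs, or 54.4%. By mouse, their part of the *Pcdh10* UMIs was 56.7%, 43.5% and 60.3%. *Pcdh10* was detected in 84.0%, 73.3% and 76.7% of them, in 13.3%, 10.1% and 16.0% of cells without *Nmu*, and in 5.33%, 10.3% and 5.88% of smooth muscle-high cells. At 3000 UMIs per cell these shares of *Pcdh10* were 79.2%, 60.0% and 55.2% with 2 or more UMIs of *Nmu*, 11.7%, 3.49% and 5.30% without *Nmu*, and 4.84%, 7.41% and 0% in smooth muscle-high cells. Median depths of the cells with 2 or more UMIs of *Nmu* were 4681, 12049 and 10086 UMIs, against 3657, 9568 and 9528 in cells without and 3683, 9260 and 4339 in smooth muscle-high cells. Of the 39 cells with 5 or more UMIs of *Pcdh10*, 28 had 2 or more UMIs of *Nmu* (11, 6 and 11 in mice 1, 2 and 3), 2 had 1 and 9 had none. The same 70 cells held 52.8% of *Cdh8* UMIs, 14.5% of *Pcdh9*, 12.4% of *Cdh6* and 10.5% of *Pcdh17*, and 3.41% of all UMIs.

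Other cell markers moved with the *Nmu* cells as well. At 2 or more UMIs of *Nmu*, the 10 neuronal markers summed to 139, 101 and 98.1 UMIs per 10000, against 67.0, 67.4 and 63.4 in cells without *Nmu*. The 10 smooth muscle markers summed to 26.2, 5.78 and 26.9 against 83.1, 16.9 and 10.8, and the 10 glial markers to 3.22, 13.3 and 11.0 against 16.9, 13.5 and 11.8. The 2 markers of interstitial cells of Cajal, *Kit* and *Ano1*, summed to 1.69, 0.913 and 0.698 at 2 or more UMIs of *Nmu*, against 0.0955, 0.0357 and 0.0853 without, and to 0.114, 0.0602 and 0.271 in smooth muscle-high cells. The part of these markers in the differences of the members was not tested. With all 200 *Nmu*-positive cells, leaving out mouse 1, 2 or 3 gave 4 of 21, 6 of 21 and 1 of 23 called members, with 1.12%, 3.12% and 0.509% of genes and with *Pcdh10* called each time. Such fits rest on 2 mice, with the spread pooled over genes. Without the smooth muscle-high cells 0 of 21 members and 0% of genes were called, with a log2 difference of 2.28 for *Pcdh10*. Of 7 catenins and 9 further cadherin superfamily genes tested, 0 were called by limma, and 0 and 3 of them had an unadjusted p under 0.05. *Cdh24* was at 0.425, 0.0971 and 0.0994 UMIs per 10000 in *Nmu*-positive cells against 0.0514, 0.0818 and 0.0781 (adjusted p = 0.642). Its mean was 2.94-fold higher, but this rested on 7 UMIs of mouse 1, through which it also passed the filter, and in mice 2 and 3 the values lay close together. Among members too low to test, the mice did not overlap, over 2-fold apart, for *Pcdh11x* and *Pcdhac1*, which were higher in *Nmu*-positive cells, and for *Cdh18*, *Pcdhb6*, *Pcdhb21*, *Pcdhgb4* and *Pcdhga12*, which were lower, as were *Cdh3* and *Pcdhga8* with no UMI in *Nmu*-positive cells. This made 2 of 66 untested members higher and 7 lower, where 1.17% and 8.93% of the 10634 untested genes with a UMI did the same. These levels rest on few UMIs, such as 19 in all for *Pcdhac1*, and in mouse 1 a single UMI in *Nmu*-positive cells stood for 0.0608 UMIs per 10000.

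The comparison of *Nos1*-only with *Chat*-only cells grouped cells by the synthases of nitric oxide and acetylcholine, which mark nitrergic and cholinergic neurons. A single UMI could decide the class, so the classes may mix these neurons. *Sox10* was detected in 56.5% of *Nos1*-only and 37.9% of *Chat*-only cells. The levels of *Pcdh7*, *Pcdh10* and *Cdh2* were lower and that of *Cdh11* higher in *Nos1*-only cells of every mouse, but no member passed the test. A cell was *Nos1*-only if it had 1 or more UMIs of *Nos1* and none of *Chat*, and the reverse for *Chat*-only. There were 130, 531 and 301 *Nos1*-only and 16, 148 and 113 *Chat*-only cells in mice 1, 2 and 3, so the values of *Chat*-only cells in mouse 1 rest on few cells. limma called 0 of 21 members and 16 of 9480 genes (0.169%). At an unadjusted p under 0.05 there were 4 members, against 1307 of all genes tested (13.8%). The median log2 difference of the tested members was -0.12, and that of all genes tested was -0.02. Of the 21 members, 9 were lower and 1 higher in *Nos1*-only cells in every mouse, against 24.7% and 16.6% of all genes tested.

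*Pcdh7* was at 1.30, 0.837 and 0.924 UMIs per 10000 in *Nos1*-only cells and at 1.97, 1.99 and 3.02 in *Chat*-only cells of mice 1, 2 and 3. The mice did not overlap, and the mean was 2.28-fold higher in *Chat*-only cells (log2 difference -0.88 ± 0.18 SE, adjusted p = 0.145). It was detected in 38.5%, 50.5% and 48.5% of *Nos1*-only and in 56.3%, 70.3% and 85.0% of *Chat*-only cells, and at 3000 UMIs per cell in 25.4% ± 4.25 and 45.7% ± 5.91 (SD, n = 3 mice). In smooth muscle-high cells, at that depth, the share was 34.4% ± 7.93, so the share in *Nos1*-only cells was not above it. Median depths were 4022, 10387 and 9598 UMIs in *Nos1*-only and 3342.5, 10219 and 10144 in *Chat*-only cells. *Cdh11* was at 0.643, 0.623 and 0.558 against 0.151, 0.275 and 0.459 UMIs per 10000, 2.06-fold higher in *Nos1*-only cells without overlap (0.50 ± 0.15, adjusted p = 0.274), where the value of mouse 1 in *Chat*-only cells was 1 UMI. *Cdh2* was at 3.96, 2.59 and 3.21 against 5.44, 3.45 and 4.22 (-0.37 ± 0.10, adjusted p = 0.236), so the classes overlapped while each mouse showed the same direction.

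*Pcdh10* was at 0.330, 0.101 and 0.404 UMIs per 10000 in *Nos1*-only and at 3.93, 0.443 and 0.900 in *Chat*-only cells (log2 difference -1.23 ± 0.37, adjusted p = 0.266). The size rested on mouse 1, without which the log2 difference was -0.64 (adjusted p = 4.00e-07), in a fit on 2 mice. *Nmu*-positive cells were in both classes, 85 among the *Nos1*-only and 30 among the *Chat*-only cells. Without them, *Pcdh10* was at 0.267, 0.0906 and 0.180 against 1.21, 0.201 and 0.392, and the log2 difference was -0.60 (adjusted p = 0.326). *Pcdhb19*, which passed the filter through *Chat*-only cells alone, was at 0.0660, 0.0978 and 0.0650 against 0.302, 0.148 and 0.117 (adjusted p = 0.398). Among all genes tested, 2.61% were over 2-fold higher without overlap in *Nos1*-only cells, as *Cdh11* was, and 2.74% were lower in this way, as *Pcdh7*, *Pcdh10* and *Pcdhb19* were. Of 65 members too low to test, *Pcdhb8* and *Pcdhga10* were lower in *Nos1*-only cells in this way and *Cdh5*, with none of its 13 UMIs in *Chat*-only cells, was higher, where 0.962% and 7.13% of the 9672 untested genes with a UMI did the same. In mouse 1, 1 UMI was 0.151 UMIs per 10000 in *Chat*-only cells, so such values rest on few UMIs.

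Leaving out mouse 1 gave 7 of 22 members called, while 24.3% of all genes tested were called, and leaving out mouse 2 or 3 gave 2 of 24 (1.29% of genes) and 1 of 20 (0.908%). Requiring 2 UMIs of *Nos1* or *Chat* gave 6 of 23 members, namely *Pcdh7*, *Pcdh10*, *Cdh2*, *Pcdh15*, *Pcdh9* and *Cdh11*, and 22.2% of genes. This fit may rest on 2 mice, since a mouse needed at least 10 cells of both classes. Mouse 1 had only 16 *Chat*-only cells when 1 UMI was enough. Smooth muscle markers summed to 34.7, 21.1 and 13.5 UMIs per 10000 in *Nos1*-only and to 20.7, 7.33 and 8.66 in *Chat*-only cells, and glial markers to 13.1, 14.2 and 11.6 against 11.5, 8.66 and 5.67. Their part in these differences was not tested. The clustered protocadherins summed to 2.41, 2.48 and 2.57 in *Nos1*-only and to 2.57, 3.35 and 3.73 in *Chat*-only cells. No catenin was called, and none of the other cadherin superfamily genes.

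**Figure D4:**
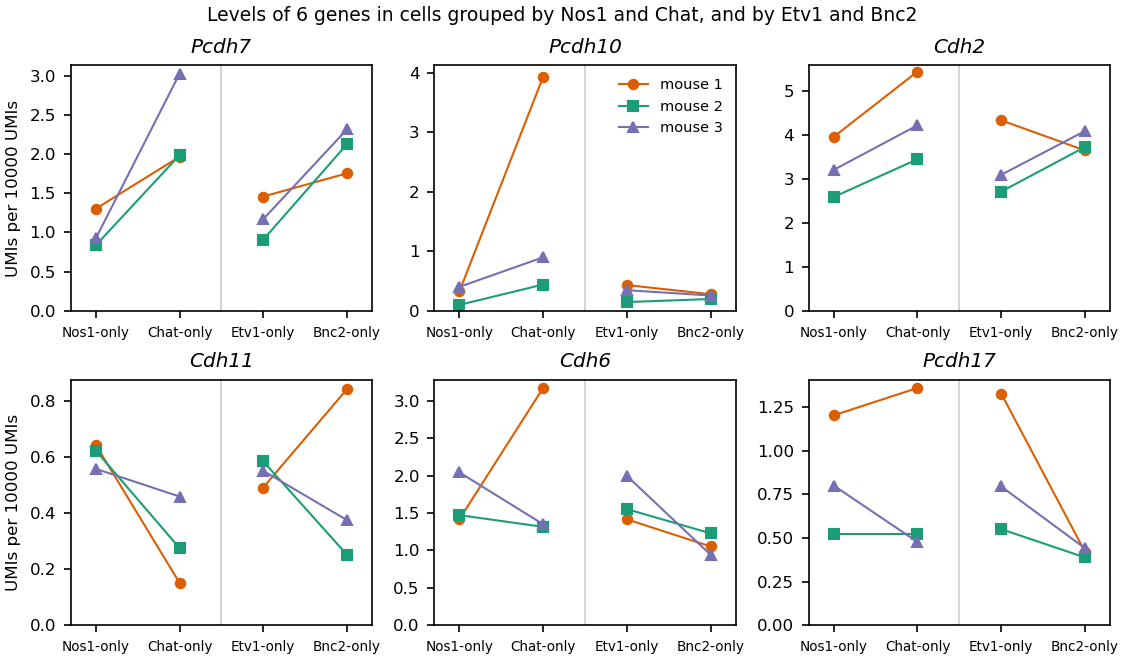
Level of 6 members, in UMIs per 10000 UMIs, in *Nos1*-only and *Chat*-only cells and in *Etv1*-only and *Bnc2*-only cells, with 1 line per mouse in each comparison. *Pcdh7* is higher in *Chat*-only and *Bnc2*-only cells in every mouse, and the *Pcdh10* value of mouse 1 in *Chat*-only cells, 3.93, is far above the rest.

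*Etv1* and *Bnc2* encode transcription factors that mark separate groups of enteric neurons. *Sox10* was detected in 57.4% of *Etv1*-only and 38.9% of *Bnc2*-only cells. The levels of *Cdh6*, *Cdh19* and *Pcdh17* were higher and that of *Pcdh7* lower in *Etv1*-only than in *Bnc2*-only cells of every mouse, but no member passed the test. These classes, of 161, 594 and 320 against 28, 182 and 122 cells, share cells with the previous ones, since 748 cells were both *Nos1*-only and *Etv1*-only and 131 were both *Chat*-only and *Bnc2*-only, so the 2 comparisons are not independent. limma called 0 of 21 members and 18 of 9583 genes (0.188%), with 5 members at an unadjusted p under 0.05 against 1185 of all genes tested (12.4%). The median log2 difference of the tested members was -0.0036, against -0.0082 over all genes tested. Of the 21 members, 5 were higher and 5 lower in *Etv1*-only cells in every mouse, against 17.3% and 19.8% of all genes tested.

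*Pcdh7* was at 1.46, 0.908 and 1.17 UMIs per 10000 in *Etv1*-only and at 1.75, 2.13 and 2.32 in *Bnc2*-only cells (log2 difference -0.62 ± 0.16 SE, adjusted p = 0.245). *Cdh6* was at 1.42, 1.55 and 1.997 against 1.05, 1.23 and 0.941 (0.45 ± 0.14, adjusted p = 0.317). *Pcdh17* was at 1.33, 0.551 and 0.796 against 0.421, 0.389 and 0.441 (0.56 ± 0.16, adjusted p = 0.269). Of these, the mice did not overlap for *Pcdh7*, *Cdh6* and *Pcdh17*, and of these *Pcdh17* was over 2-fold apart, at 2.14-fold. The gap of *Pcdh17* was widest in mouse 1, and without that mouse its log2 difference was 0.35, in a fit on 2 mice. *Cdh19* was at 1.01, 0.614 and 0.622 against 0.632, 0.446 and 0.366 UMIs per 10000 (0.34 ± 0.09, adjusted p = 0.259), and *Pcdhb14* was 2.14-fold higher in *Bnc2*-only cells without overlap, at 0.0578, 0.135 and 0.113 against 0.281, 0.206 and 0.167 (adjusted p = 0.404). The gap of *Pcdhb14* was widest in mouse 1, where 1 UMI was 0.0702 UMIs per 10000 in *Bnc2*-only cells. Its log2 difference was -0.25, and -0.08 after thinning to 3000 UMIs (limma, adjusted p = 0.868). Of all genes tested, 2.41% were over 2-fold higher without overlap in *Etv1*-only cells and 1.87% were lower, against 1 of 21 members in each direction. Of 65 members too low to test, *Cdh8*, *Pcdha8*, *Pcdhac2*, *Pcdh11x* and *Pcdh19* were over 2-fold higher without overlap in *Etv1*-only cells, and *Pcdhgb5*, *Pcdhgb6* and *Pcdhga10* in *Bnc2*-only cells. That is 5 higher and 3 lower in *Etv1*-only cells, where 6.68% and 1.4% of the 9778 untested genes with a UMI did the same, on few UMIs in the 28 *Bnc2*-only cells of mouse 1.

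Without mouse 1, 9 of 20 members were called, with 27.4% of all genes, and without mouse 2 or 3 0 were, with 0.365% and 0.707% of genes. With 2 UMIs of *Etv1* or *Bnc2*, 8 of 21 were called, with 28% of genes. These were *Cdh2*, *Cdh6*, *Cdh11*, *Cdh19*, *Pcdh7*, *Pcdh17*, *Pcdhb7* and *Pcdhb19*, of which *Pcdhb7* and *Pcdhb19* passed the filter through *Bnc2*-only cells alone. This fit may rest on 2 mice, since a mouse needed at least 10 cells of both classes. Mouse 1 had only 28 *Bnc2*-only cells when 1 UMI was enough. Of the 28 *Bnc2*-only cells of mouse 1, 9 were smooth muscle-high, and smooth muscle markers summed to 167 UMIs per 10000 in that group, against 18.4 and 7.07 in mice 2 and 3 and 22.2, 17.2 and 14.2 in *Etv1*-only cells. Without smooth muscle-high cells, limma still called 0 of 21 members, and 126 of 9530 genes (1.32%). Glial markers summed to 16.9, 14.4 and 12.6 UMIs per 10000 in *Etv1*-only and to 16.3, 7.498 and 5.705 in *Bnc2*-only cells. With *Sox10*-positive cells left out, limma called 0 of 19 members. *Cdh19* then had a log2 difference of 0.72 (adjusted p = 0.374). The part of the glial markers in the differences was not tested further.

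The deposited cells were also split by *Sox10*. *Cdh19* was higher and *Pcdh9* and *Pcdh10* were lower in *Sox10*-positive cells, and these 3 members of 18 passed the test, against 641 of 9627 genes (6.66%). The split shares cells with the others, since 95 of the 200 *Nmu*-positive cells were *Sox10*-positive. There were 148, 572 and 368 *Sox10*-positive cells in mice 1, 2 and 3 and 206, 478 and 288 without. *Cdh19* was at 1.20, 0.808 and 0.806 UMIs per 10000 in *Sox10*-positive cells and at 0.609, 0.291 and 0.304 in cells without. The groups did not overlap, and the mean was 2.34-fold higher (log2 difference 0.68 ± 0.07 SE, adjusted p = 0.00141). At 3000 UMIs per cell, *Cdh19* was detected in 23.1% ± 1.31 against 10.1% ± 0.729 of cells (SD, n = 3 mice), and in 13.4% ± 7.66 of smooth muscle-high cells. Among all genes tested, 3.87% were called higher and 2.78% lower.

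*Pcdh9* fell to 0.396, 0.406 and 0.471 UMIs per 10000 in *Sox10*-positive cells, from 1.03, 0.575 and 0.818 in cells without (log2 difference -0.49 ± 0.10, adjusted p = 0.0291), and the groups did not overlap. *Pcdh10* was at 0.335, 0.163 and 0.411 against 2.14, 0.359 and 0.857 (-0.87 ± 0.21, adjusted p = 0.0478), where the groups overlapped and mouse 1 was highest without *Sox10*. Without mouse 1 the difference of *Pcdh10* was -0.47 (adjusted p = 0.000315). Both calls were lost without the *Nmu*-positive cells, at log2 differences of -0.33 for *Pcdh9* (adjusted p = 0.0681) and -0.28 for *Pcdh10* (adjusted p = 0.310). Without the smooth muscle-high cells the differences were slightly larger than with them, at -0.54 and -0.93, but adjusted p was 0.0622 and 0.0916. At 3000 UMIs per cell *Pcdh9* was not called (-0.35, adjusted p = 0.207), while *Pcdh10* was (-0.76, adjusted p = 0.0466) and *Cdh10* became so (0.47, adjusted p = 0.0377). The call of *Pcdh10* was also lost with the mean over cells and with a pseudocount of 1, at adjusted p of 0.0768 and 0.0698. Without the *Nmu*-positive cells, *Cdh19* was 1 of 2 members called of 18 (4.05% of genes), and the other was neither *Pcdh9* nor *Pcdh10*. Without the smooth muscle-high cells, *Cdh19* was the only member called of 19 (4.43% of genes). A further 5 members had an unadjusted p under 0.05, namely *Cdh10*, which was higher in *Sox10*-positive cells, and *Cdh11*, *Cdh12*, *Pcdh15* and *Pcdhac2*, which were lower, and in all there were 8 such members, against 2228 of all genes tested (23.1%). *Pcdhac2*, at 0.0305, 0.0874 and 0.0780 against 0.161, 0.130 and 0.121 UMIs per 10000 (adjusted p = 0.118), passed the filter through cells without *Sox10* alone. Over 2-fold and without overlap, 1.9% of all genes tested were higher, as *Cdh19* was, and 0.467% lower, as *Pcdhac2* was. Of 68 members too low to test, *Cdh4* was higher in this way, and *Cdh18*, *Pcdha1* and *Pcdha4* were lower, where 2.7% and 2.12% of the 10587 untested genes with a UMI were.

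The median log2 difference of the 18 tested members was -0.09, and that of all genes tested was -0.02. Without mouse 1, 9 of 20 members were called, with 23.2% of all genes, and without mouse 2 or 3 the counts were 3 of 17 (4.46%) and 4 of 19 (7.86%). With 2 UMIs of *Sox10*, 1 of 18 was called, *Cdh19* (7.27% of genes). Among the catenins, which link classic cadherins to actin, *Ctnna1* and *Ctnnal1* were higher in *Sox10*-positive cells, with log2 differences of 0.52 ± 0.07 (adjusted p = 0.00587) and 0.75 ± 0.07 (adjusted p = 0.00112), the only 2 of 7 called. *Clstn3*, a calsyntenin of synapses, was the 1 of 8 other cadherin superfamily genes called, and was lower (-0.27 ± 0.06, adjusted p = 0.0388). The 10 glial markers, of which *Sox10* is 1, summed to 26.1, 19.0 and 16.9 UMIs per 10000 in *Sox10*-positive cells and to 7.66, 5.50 and 3.85 in cells without, and the neuronal markers to 57.7, 60.7 and 58.2 against 85.9, 78.1 and 76.1. Median depths were 3709, 10720.5 and 10072.5 UMIs against 3757.5, 8731.5 and 8560.5. The part of these in the differences was not tested.

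**Figure D5:**
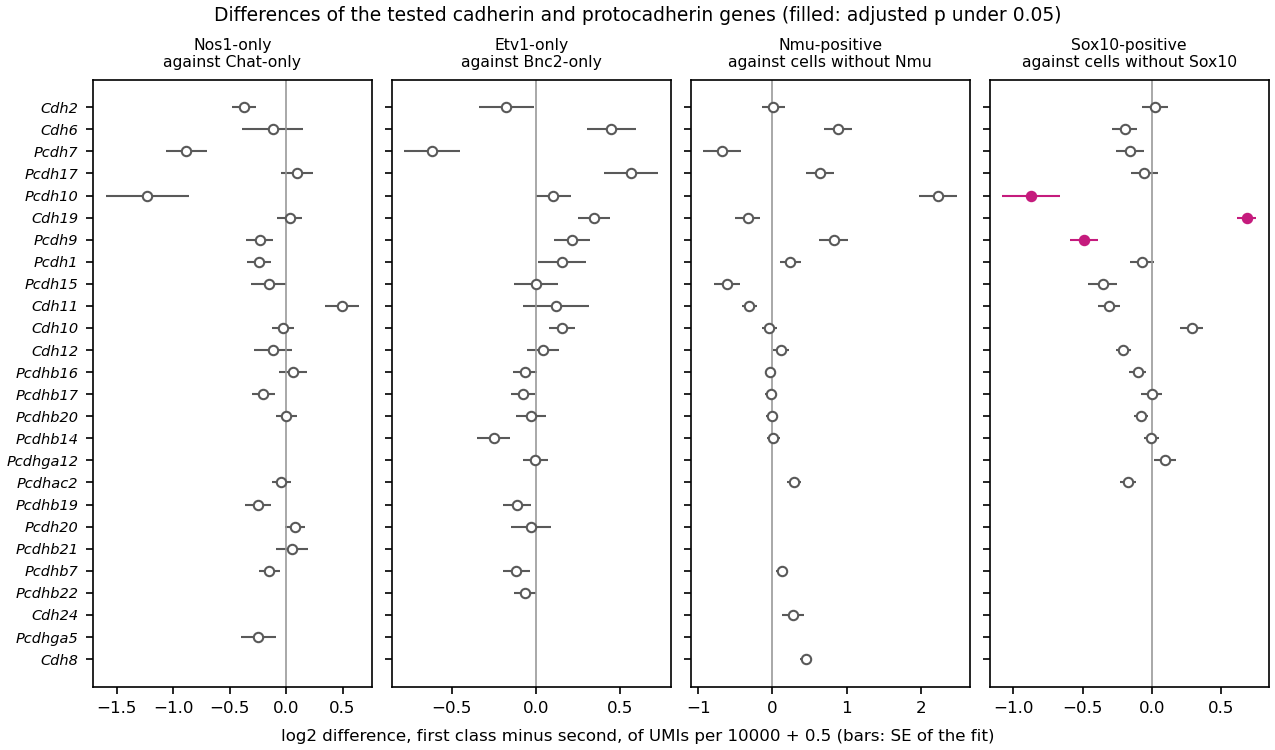
Log2 difference of each tested member in the 4 comparisons, first class minus second, on the scale of UMIs per 10000 + 0.5, with genes by mean level and bars giving the SE of the limma fit. Filled points mark the 3 members called at an adjusted p under 0.05, all in the *Sox10* comparison, while *Pcdh10* has the largest difference, 2.23, in *Nmu*-positive cells.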

How the data were processed

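ScRNA-seq values of 3 *Ednrb*-/- mice were deposited as 1 table, in which the authors had taken the natural log of 1 plus the UMIs of a gene per 10000 UMIs of the cell. Per the submitters' notes and the study's methods, the authors ran Cell Ranger on mm10 (version and annotation not given in the sources used here), filtered cells on genes and mitochondrial share, merged the mice, and removed some genes and the cells taken as non-neuronal. The deposited values were turned back into UMIs, and 100% of 6435281 values above 0 came out whole within 1e-06. A median of 12.7% of a cell's UMIs belonged to genes that are not listed. Totals per mouse were 1526256, 10358118 and 6412495 UMIs. UMIs were summed per mouse and class of at least 10 cells, and log2(UMIs per 10000 + 0.5) of genes with a mean level of at least 0.1 was tested with limma 3.58.1 (R 4.3.3), with the mouse as a block since both classes come from the same animal. A call is a Benjamini-Hochberg adjusted p under 0.05. The fits were tested on simulated data, where genes changed by 4-fold were recovered at 100% in all 4 comparisons. Those changed by 2-fold were recovered at 50% for *Nos1*/*Chat*, 96% for *Etv1*/*Bnc2*, 93% for *Nmu* and 100% for *Sox10* (9458, 9589, 9563 and 9644 genes). The simulated UMIs had Poisson counting error and a spread of 0.1 in natural log, with the same change in every mouse. Changed genes had a mean level of at least 0.5. Real differences can vary between mice, so these shares do not give the power to call real members. SDs are over mice. Limits for a count of 0 take 3 counts and cover counting error only. Named were members called in a comparison, the 15 highest members, *Cdh7*, members whose mice did not overlap over 2-fold, and called catenins and superfamily genes. Other members were named after their values were seen. The members and lists were chosen with earlier results of these data known. Alternatives were other filters, pseudocounts, class rules, totals, thinning to 3000 UMIs, and leaving out mice or cells. Python 3.11.15, numpy 2.4.6 and pandas 2.3.3 were used.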

Additional observations from a re-analysis of the deposited data

How the results depend on the processing

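Without the mouse as a block, 0 members were called in the *Sox10* comparison, against 3 with it, and the block changed no other count of called members, which was 0 in the other comparisons with and without it. Requiring 2 UMIs for a positive cell gave 6 members for *Nos1*/*Chat*, 8 for *Etv1*/*Bnc2*, 8 for *Nmu* and 1 for *Sox10*. The counts for *Nos1*/*Chat* and *Etv1*/*Bnc2* may rest on 2 mice, since few cells of mouse 1 were *Chat*-only or *Bnc2*-only. With array weights, an alternative chosen after seeing the data, which gave mouse 1 weights of 0.150 to 0.238, the counts were 5, 9, 8 and 11, and genes called numbered 2705, 2731, 303 and 4148, against 16, 18, 0 and 641. For *Nos1*/*Chat*, at least 20 cells a class, which drops mouse 1, gave 7 and the mean over cells gave 1. For *Nmu*, a pseudocount of 0.1 gave 1, thinning to 3000 UMIs 3, leaving out *Sox10*-positive cells 1, and leaving out cells with 5 of 10 smooth muscle markers 1. For *Sox10*, no filter on low values gave 1, and leaving out smooth muscle-high cells, also chosen after seeing the data, gave 1. Leaving out 1 mouse gave 1 to 7 members for *Nos1*/*Chat*, 0 to 9 for *Etv1*/*Bnc2*, 1 to 6 for *Nmu* and 3 to 9 for *Sox10*, each time with the most calls without mouse 1 except for *Nmu*, where it was mouse 2. Genes called without mouse 1 numbered 2276, 2556, 105 and 2169, without mouse 2 122, 35, 299 and 432, and without mouse 3 86, 68, 49 and 760. In the same order of comparisons, genes called numbered 14, 19, 0 and 0 without the block, 2079, 2602, 649 and 698 with 2 UMIs, 73, 101, 101 and 274 after thinning, 3, 25, 1 and 721 with a pseudocount of 0.1, 20, 11, 0 and 573 with 1, 3, 2, 0 and 71 with no filter, 59, 39, 0 and 499 with the mean over cells, and 13, 126, 0 and 425 without smooth muscle-high cells. The cause of these changes was not tested. In 447 alternatives of 26 differences of single members, 0 turned direction. These 26 were picked for an unadjusted p under 0.05 in the main limma fit, and the alternatives reuse the same cells. The kept direction was thus favoured by the choice and is no separate support. Leaving out cells with 5 of 10 smooth muscle markers took 955 of 2060 cells. The depth of mouse 1 limits its small classes most, since 1 UMI was 0.151 UMIs per 10000 in its *Chat*-only cells. Leaving out *Nmu*-positive cells, chosen after seeing the data, gave 0, 0 and 2 members in the 3 comparisons it applies to.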
